A study of Mus musculus with 18 samples.

Results

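Matrix metalloproteinases (MMPs) are zinc-dependent enzymes that cut collagen, elastin, gelatin and proteoglycans outside the cell. Most are made as inactive precursors, and 4 tissue inhibitors of metalloproteinases (TIMPs) bind the active enzymes one to one. In an injured artery this system is known for loosening the elastic laminae and the collagen around smooth muscle cells, which allows cells to enter the forming neointima. The genes described here were 6 enzymes (Mmp2, Mmp3, Mmp9, Mmp12, Mmp13 and Mmp14) and 3 inhibitors (Timp1, Timp2 and Timp3), found by symbol among 35655 genes. All 9 were among the 10312 genes with enough counts to test, but Mmp9, Mmp12 and Mmp13 passed that filter only because of their counts on days 7 to 21.

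The libraries came from laser-dissected carotid artery sections of male C57/BL6 WT mice, and no genetic alteration or drug was used. Wire injury was made at 11 weeks of age, and the study's methods give no separate age for day 0. The 5 groups were day 0 (pre-injury, 4 libraries) and days 7, 14, 21 and 28 after wire injury of the left carotid (4, 3, 4 and 3 libraries). Some label numbers occur on both day 0 and day 21, and whether they mark the same animals is not stated. Up to 70 sections were collected per library, from the outer elastic lamina inward and including the neointima, and vessels with thrombosis had been discarded. The study's methods name the right carotid as the control vessel and its text speaks of pooled samples, but how many animals a library held and from which side a day 0 library came are not given per library. The p-values therefore measure the spread between libraries, which may be partly technical. The 3′ ends of transcripts were counted once per molecule (MACE), so levels were given as CPM, counts scaled to a common library size, and needed no division by gene length. Library totals ranged from 440675 to 878310 counts.

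The arterial label was met by the smooth muscle markers, 10 contractile genes that summed to 39394 to 45311 CPM on day 0. On day 7 the same sum was 1874 to 8238 CPM, and on day 28 it was 26271 to 33914 CPM. Markers of macrophages (16 genes) summed to 145 to 582 CPM on day 0, 5930 to 8395 CPM on day 7 and 989 to 1363 CPM on day 28. In dissected tissue, fewer cells of a type and less RNA per cell cannot be told apart, and the part of cell make-up in the results below was not tested.

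The enzymes Mmp13, Mmp12 and Mmp3 are neighbours in the genome. On build GRCm39 (GENCODE M39), Mmp13 lies at chr9:7272514-7283331, Mmp12 at chr9:7344381-7369499 and Mmp3 at chr9:7445822-7455975, all on the plus strand and together spanning 183.5 kb of a cluster of 10 Mmp genes. The other members are scattered: Mmp2 (chr8:93553902-93580049, plus strand), Mmp9 (chr2:164780439-164797771, plus), Mmp14 (chr14:54668878-54682821, plus), Timp1 (chrX:20736316-20740976, plus, inside Syn1), Timp2 (chr11:118191887-118246566, minus) and Timp3 (chr10:86136236-86185371, plus, inside Syn3). Syn1 held 24 counts and Syn3 72 counts over the 18 libraries, against 5477 for Timp1 and 8822 for Timp3. Exons of Timp2 overlap those of Cep295nl on the same strand, which held 13 counts against 11211 for Timp2. Mmp1b, whose exons overlap those of Mmp12 on the opposite strand, had no count.

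Motifs near the transcript starts differed between the clustered enzymes, for Mmp12 at its downstream start only, and the other members with a promoter window. The sequences are shown as a description, and their relation to the levels after injury was not tested. RefSeq promoter windows (build GRCm38.p6, 250 bases before to 50 after each start) were found for 7 of the 9 members, with no entry for Mmp2 or Mmp9. Each was searched on both strands for 3 motifs. An AP-1 site was read as TGANTCA, which equals its own reverse complement. The letters TATAAA stood for a TATA box. A GC box was read as GGGCGG, and no letters are shared between matches of different motifs in the stretches printed. Mmp3, Mmp13 and the downstream of 2 Mmp12 starts held both of the first 2 motifs, a pair present in 1.54% of 32851 promoter windows, and no GC box. The stretch from 10 bases before the AP-1 match to 10 bases after the TATA box match is given for each, 5′ to 3′ with the matches in capitals.

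Mmp13 (chr9:7272469-7272513, plus strand): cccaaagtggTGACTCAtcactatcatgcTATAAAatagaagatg
Mmp3 (chr9:7445766-7445830, plus strand): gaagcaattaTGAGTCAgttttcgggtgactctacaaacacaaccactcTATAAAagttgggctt
Mmp12 (chr9:7347320-7347393, plus strand): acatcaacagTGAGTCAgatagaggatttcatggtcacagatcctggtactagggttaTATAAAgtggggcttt

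The upstream Mmp12 start held none of the 3 motifs. Timp1, Timp2, Timp3 and Mmp14 held a GC box (35.7% of windows) and neither AP-1 (7.81%) nor TATA box (13.6%) match. Their GC boxes are in capitals below, read on the strand of the gene, so that a box on the other strand appears as CCGCCC.

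Mmp14 (chr14:54431569-54431600, plus strand): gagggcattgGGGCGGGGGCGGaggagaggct
Timp1 (chrX:20870148-20870173, plus strand): atcctggggcCCGCCCctaggctttg
Timp2 (chr11:118355433-118355458, minus strand): ggggagggctGGGCGGcgcggcgcgg
Timp3 (chr10:86300387-86300440, plus strand): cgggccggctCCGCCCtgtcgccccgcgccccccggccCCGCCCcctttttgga

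A match describes letters in the window and not a used site.

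Which members differed from the pre-injury artery was asked with edgeR's quasi-likelihood test over all 18 libraries, with Benjamini-Hochberg adjustment over the 10312 genes and a threshold of 0.05. The counts of members below are a description and no test of enrichment. Mmp9, Mmp12 and Mmp13 passed the filter only through days 7 to 21, and the members were chosen with earlier results of these data known. On day 7, 6 of the 9 members were called: Mmp2, Mmp12, Mmp13, Mmp14 and Timp1 were higher and Timp3 was lower. Of all tested genes, 19.8% were called in that comparison (11.3% higher and 8.53% lower). On day 14 the count was 4, all higher (Mmp2, Mmp13, Mmp14 and Timp1), against 6.22% of all genes (4.8% higher, 1.42% lower). Day 21 also had 4, all higher (Mmp2, Mmp12, Mmp14 and Timp1), against 8.84% (5.92% higher, 2.93% lower). On day 28 no member was called by edgeR or DESeq2, 1 (Timp3) had an unadjusted p under 0.05, and 1.34% of all genes were called (0.97% higher, 0.369% lower).

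**Figure D1:**
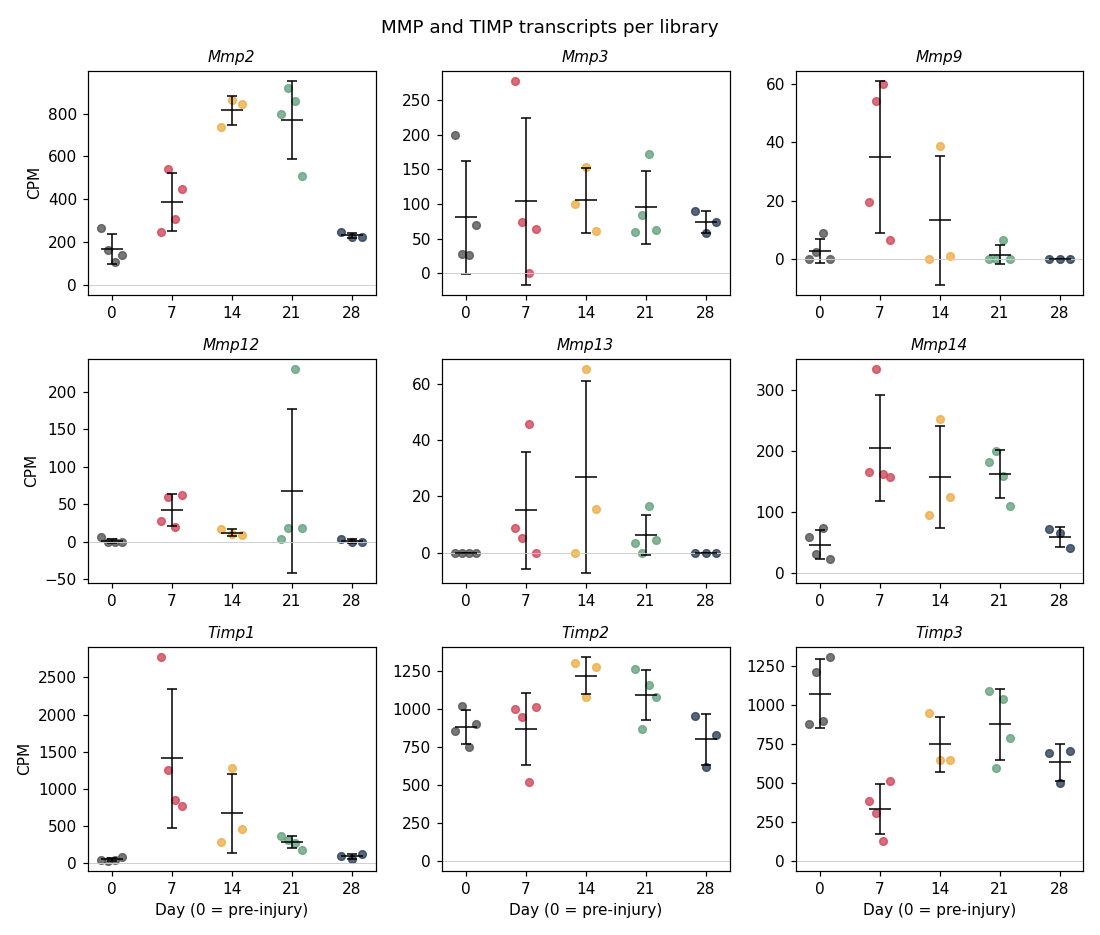
Scaled counts (CPM, y axes differ and include 0 or a margin below it) of each member by day, 1 point per library, with the mean (long tick) and SD (bars, which can run below 0). Timp1 was above its day 0 range in each library of days 7, 14 and 21, and Mmp2 stood highest on days 14 and 21.

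The gelatinase Mmp2, which digests denatured collagen and basement membrane, was the most abundant of the 6 enzymes by mean CPM on each day. It measured 267, 161, 106 and 138 CPM in the 4 day 0 libraries and 248, 543, 307 and 447 CPM on day 7. On day 14 the 3 libraries held 737, 863 and 843 CPM, on day 21 the 4 held 796, 918, 860.1 and 509.6 CPM, and on day 28 the 3 held 244, 225 and 225 CPM. The day 0 and day 7 libraries overlapped, whereas each day 14 and day 21 library lay above each day 0 library. Compared with day 0, the log2 fold change of days 7, 14 and 21 was 1.20 ± 0.28 (SE, adjusted p = 0.00256), 2.28 ± 0.30 (2e-05) and 2.20 ± 0.28 (1.89e-05). The day 28 value was 0.46 ± 0.30 and was not called (adjusted p = 0.486). Mmp2 was therefore ordered day 0, 28, 7, 21, 14 by mean, and of these neighbours only days 7 and 21 were called as different. Each day 28 library lay below each day 7 library, but the difference (log2 -0.74 ± 0.30, unadjusted p = 0.0209) did not pass after adjustment (adjusted p = 0.104). Days 21 and 14 overlapped and differed by less than their spread (-0.08 ± 0.29, adjusted p = 0.999).

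Mmp14, the membrane-anchored enzyme that converts the Mmp2 precursor to its active form with Timp2 as adaptor, was higher from day 7 to day 21. Its levels were 58.1, 31.1, 73.0 and 22.3 CPM on day 0 and 166, 334, 161 and 157 CPM on day 7. The day 14 libraries held 94.4, 252 and 124 CPM, the day 21 libraries 181, 199.8, 158 and 109 CPM, and the day 28 libraries 71.8, 64.5 and 39.9 CPM. Each library of days 7, 14 and 21 lay above each day 0 library, and the day 28 libraries lay within the day 0 range. For days 7, 14, 21 and 28 in turn, the log2 fold change from day 0 was 2.16 ± 0.38 (adjusted p = 0.000199), 1.77 ± 0.40 (0.00659), 1.82 ± 0.38 (0.00304) and 0.36 ± 0.41 (0.735). Without day 14 replicate 2, which held the 252 CPM, the day 14 value was 1.25 and not called (adjusted p = 0.138).

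Unlike Mmp2, Mmp14 had its highest mean on day 7. The means on days 7, 21 and 14 were 204 ± 86.6, 162 ± 39.1 and 157 ± 84.0 CPM (SD, n = 4, 4 and 3), and no pair of these days was called (unadjusted p of 0.327 to 0.889).

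The other gelatinase, Mmp9, which neutrophils store in granules and macrophages secrete, was sparse. It held 0, 2.39, 8.94 and 0 CPM on day 0 and 19.6, 53.9, 59.8 and 6.46 CPM on day 7. On day 14 it held 0, 38.8 and 1.30 CPM, on day 21 it had counts in 1 library (6.58 CPM), and it had none in the 3 libraries of day 28. The lowest day 7 library fell below the highest day 0 library. The day 7 estimate of 3.56 ± 1.31 on the log2 scale did not pass the adjusted threshold (adjusted p = 0.0592), with 75 counts on day 7 and 8 on day 0 (ratio 12.3, 95% counting interval 5.94 to 29.6). This call changed with the settings, as 9 of 26 alternatives called it. On day 28 Mmp9 had no count, and 3 counts over the group set a floor of 1.56 CPM. That floor lay 21.5-fold below the pooled day 7 level, or 13.7-fold without day 28 replicate 1. This bound leaves out counting error on day 7, and the 95% counting interval put the ratio of day 28 to day 7 at up to 0.0586. Mmp9 was called lower on day 28 than on day 7 (adjusted p = 0.0195), a call lost without day 28 replicate 2 or 3.

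Mmp12, the macrophage metalloelastase, was close to absent on days 0 and 28. On day 0 it held 5.96 CPM in replicate 1 and no count in the other 3 libraries. On day 7 the libraries held 28.5, 59.3, 19.9 and 63.0 CPM. Those of day 14 held 17.6, 10.6 and 9.13 CPM, and those of day 28 held 4.31, 0 and 0 CPM. On day 21 they held 3.55, 18.2, 230.2 and 18.6 CPM, so that replicate 3 exceeded the others of its day by far. Day 7 lay above day 0 without overlap, with a fitted log2 fold change of 4.76 ± 1.16 (adjusted p = 0.00406). The day 21 change was 5.42 ± 1.15 (adjusted p = 0.00366), and without day 21 replicate 3 it was 3.02 and not called (adjusted p = 0.101). Without day 0 replicate 1, day 0 held no count, and both calls held (adjusted p = 0.00286 and 0.00406). The day 14 value of 2.99 ± 1.27 was not called (adjusted p = 0.203), although its 3 libraries lay above the 4 of day 0.

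The library with 230.2 CPM of Mmp12 was highest of its day in several marker sums. These were the neutrophil (597 CPM against 111 to 156 CPM in the other 3), fibroblast (5886 against 3715 to 3963 CPM) and contractile smooth muscle sums (25337 against 10028 to 17823 CPM). Its macrophage marker sum of 3427 CPM lay inside the 2308 to 3996 CPM of the others. Of 11 neutrophil markers, 4 (S100a8, S100a9, Cxcr2 and Csf3r) had enough counts to test, and only these had counts on day 21. Cxcr2 had counts in all 18 libraries and a day 0 mean of 50.3 CPM, where the whole sum averaged 54.2 CPM. Ly6g, Camp, Ltf, Retnlg and Ngp had no count on day 21, and the granule genes Mpo and Elane had none in any library. Over the 16 macrophage markers, 16 were called higher on each of days 7, 14 and 21 and 4 on day 28. The part of any of these cell types in the Mmp12 and Mmp9 values was not tested.

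Mmp13, an interstitial collagenase of cartilage and bone as well as of healing tissue, had no count in the 7 libraries of days 0 and 28. It measured 8.90, 5.39, 45.8 and 0 CPM on day 7, 0, 65.3 and 15.7 CPM on day 14, and 3.55, 0, 16.4 and 4.65 CPM on day 21. A library without any count was present on each of these days, so the groups overlapped with day 0. Mmp13 on day 7 stood 13.6-fold above the day 0 floor of 3 counts over 4 libraries (1.02 CPM), and was called higher (adjusted p = 0.0236). Its day 14 level exceeded that floor by a bound of 24.5-fold (adjusted p = 0.0297), and its day 21 level by a bound of 6.18-fold without passing the threshold (adjusted p = 0.118). Both calls were fragile: that of day 7 was lost in 4 and that of day 14 in 8 of 25 alternatives, among them the fits that left out its highest library. Day 7 replicate 3 held 23 of the 31 counts of its day, and without it the bound was 4.51-fold. Day 14 replicate 2 held 37 of 49 counts, and without it the bound was 8.45-fold. Without day 21 replicate 3 the day 21 bound was 2.77-fold.

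Day 14 replicate 2, highest of its day for Mmp13, also had the highest chondrocyte marker sum of its day (1322 CPM over 13 genes, against 182 and 487 CPM). On day 21 the order differed, since replicate 1 had the highest chondrocyte sum (1771 CPM) and 3.55 CPM of Mmp13. Chondrocyte markers did not stand alone in day 14 replicate 2. It was also highest of its day for macrophage (3704 against 1585 and 3244 CPM), neutrophil (268 against 91.2 and 97.9 CPM) and osteoclast sums. Its contractile smooth muscle sum was the lowest of the day (8794 against 27622 and 10011 CPM). Osteoclast markers summed to 121.6 to 210.0 CPM on day 14 and 118.7 to 241 CPM on day 21, against 29.8 to 61.7 CPM on day 0 and 96.2 to 243 CPM on day 7. Of these 8 genes only 3 (Acp5, Ctsk and Nfatc1) had enough counts to test, and Oscar and Calcr had no count. The part of these cells was not tested.

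Mmp3, the stromelysin that digests proteoglycans and activates other pro-enzymes, was not called in any of the 10 comparisons between days. Before injury it held 199.5, 27.5, 26.8 and 69.6 CPM, and on day 7 it held 278, 73.7, 0 and 64.6 CPM. The libraries of day 14 held 101, 154 and 61.3 CPM, those of day 21 held 60.3, 84.8, 173 and 62.8 CPM, and those of day 28 held 90.5, 57.9 and 73.5 CPM. The day 7 libraries alone spanned its whole range. The largest log2 fold change from day 0 was 0.38 ± 0.74 (day 14, adjusted p = 0.885). The SEs against day 0 were 0.69 to 0.75, so the means of 74.0 to 105 CPM do not show that its level was equal on all days. Its neighbours Mmp12 and Mmp13 were at or near 0 on day 0, where Mmp3 was already at a mean of 80.8 CPM. They hold the same pair of motifs, Mmp12 at its downstream start only, and the part of these motifs was not tested.

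**Figure D2:**
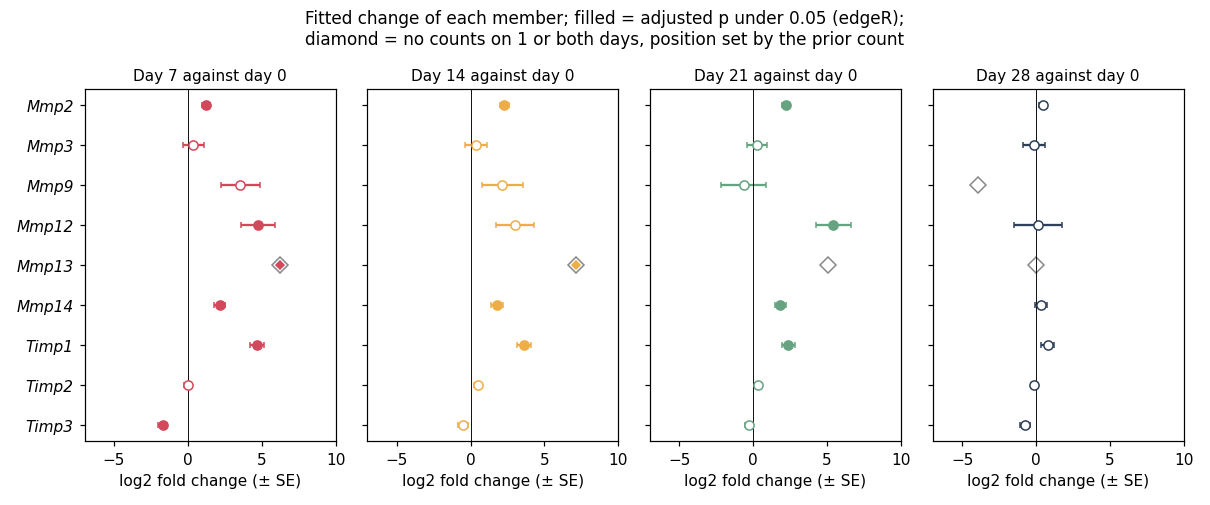
Fitted log2 fold change from day 0 (x axis) of each member on days 7, 14, 21 and 28, with its SE as a bar. Filled symbols passed the adjusted threshold, and diamonds mark comparisons in which 1 or both days had no count, where the position depends on the prior count and the bound in the text applies. Timp3 on day 7 is the filled symbol left of 0.

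Among the inhibitors, Timp1, a secreted glycoprotein induced in many inflamed tissues, had the smallest adjusted p of the members on day 7. The day 0 libraries held 52.1, 39.4, 49.2 and 81.4 CPM and those of day 7 held 2776, 1252, 847 and 770.1 CPM. They were followed by 286, 1278 and 458 CPM on day 14, 376, 315, 273 and 179 CPM on day 21 and 105, 59.5 and 121 CPM on day 28. No library of days 7, 14 or 21 overlapped with day 0, and the day 28 libraries did. The day 7 level was 25.3-fold that of day 0 (log2 fold change 4.66 ± 0.47, adjusted p = 1.7e-07). For days 14, 21 and 28 the log2 fold change was 3.60 ± 0.47 (1.99e-05), 2.36 ± 0.44 (0.00108) and 0.78 ± 0.46 (0.449). The 3 calls held in each alternative run, but their size rested in part on single libraries. The day 14 value was 2.74 without day 14 replicate 2 (1278 CPM), and the day 7 value was 4.05 without day 7 replicate 1 (2776 CPM).

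The day means of Timp1 ran 7, 14, 21, 28, 0 from high to low. Neither days 14 and 7 (-1.07 ± 0.44, unadjusted p = 0.0223, adjusted p = 0.322) nor days 21 and 14 (-1.23 ± 0.43, unadjusted p = 0.00831, adjusted p = 0.952) passed after adjustment. Both differences were called with no filter on low counts, and that of days 14 and 7 also without day 14 replicate 2. Day 21 was lower than day 7 (-2.30 ± 0.42, adjusted p = 0.00101).

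Timp3, which binds to the extracellular matrix and also inhibits the ADAM17 sheddase, went the other way. It held 875, 1211, 896 and 1307 CPM on day 0 and 383, 307, 126 and 510.2 CPM on day 7, without overlap. Later libraries held 950.2, 646 and 645 CPM on day 14, 1087, 595, 1034 and 786 CPM on day 21, and 692, 496 and 706 CPM on day 28. The fall on day 7 was -1.69 ± 0.30 on the log2 scale (adjusted p = 0.00024), to 0.31 of the day 0 level. The day 14, 21 and 28 values of -0.52 ± 0.32, -0.29 ± 0.29 and -0.76 ± 0.32 were not called, though the 3 day 28 libraries lay below the 4 of day 0 (adjusted p = 0.258).

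The day 7 libraries, with the lowest Timp3 mean, also had the 4 lowest contractile smooth muscle sums of the series. On day 7 that sum was 4199, 1874, 2249 and 8238 CPM in replicates 1 to 4, and all 9 tested genes of the list were lower than on day 0 (median log2 fold change -3.32, against 0.07 over all tested genes). Within day 7, replicate 4 had the highest Timp3 and the highest sum, and replicate 3 had the lowest Timp3 without the lowest sum. The part of smooth muscle RNA in the Timp3 values was not tested.

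Timp2, which is produced constitutively by many cells and serves Mmp14 in the activation of Mmp2, was not called in any comparison. Before injury it held 853, 1016, 751 and 899 CPM, and on day 7 it held 997, 949, 516 and 1014 CPM. The libraries of day 14 held 1300.5, 1078 and 1279 CPM, those of day 21 held 1262, 869.8, 1156 and 1079.6 CPM, and those of day 28 held 952, 619 and 828 CPM. The 3 libraries of day 14 lay above the 4 of day 0, with a log2 fold change of 0.47 ± 0.23 (adjusted p = 0.311). The other values against day 0 lay between -0.14 and 0.31.

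The inhibitor transcripts therefore changed in make-up. As a share of the summed Timp1, Timp2 and Timp3 counts, Timp1 took 2.78% ± 0.76 (SD, n = 4) before injury and 51.8% ± 14.0 (SD, n = 4) by day 7. It then took 24.4% ± 16.3, 12.8% ± 3.84 and 6.13% ± 1.14 on days 14, 21 and 28 (n = 3, 4 and 3). Timp3 fell as a share from 53.1% ± 3.27 to 13.0% ± 6.35 on day 7 and stood at 28.7%, 38.4% and 41.5% thereafter. In the day 7 library with the lowest Timp1 share the value was 33.6% (95% Clopper-Pearson interval 31.1 to 36.1%), and in the day 0 library with the highest it was 3.56% (2.74 to 4.54%). Intervals cover counting error only.

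**Figure D3:**
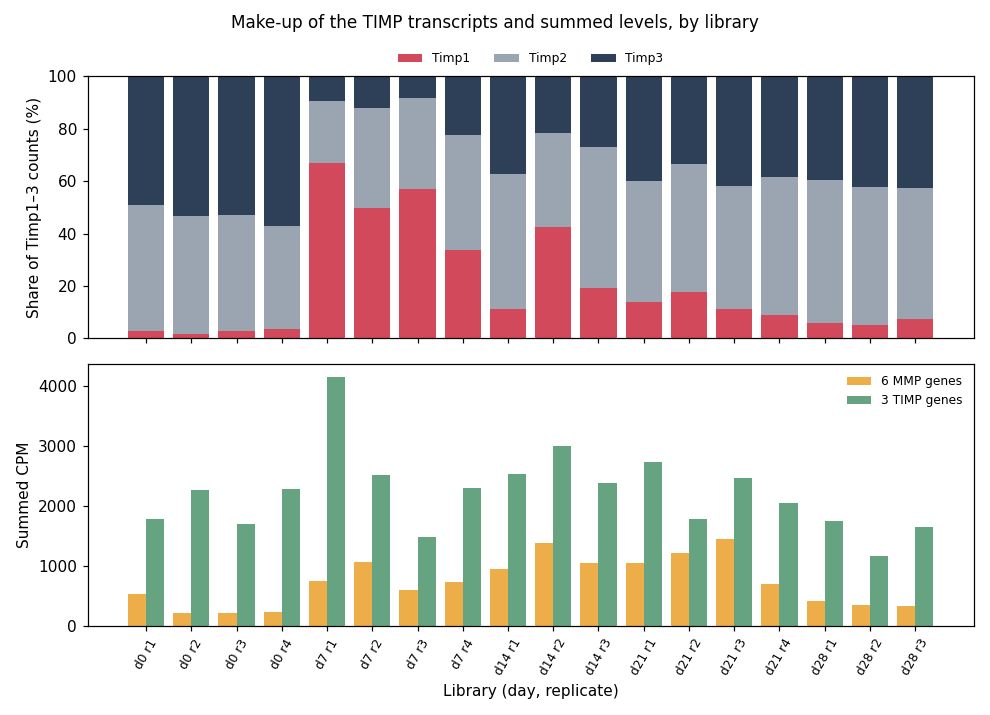
Upper panel, share (%) of the 3 TIMP genes in their summed counts for each of the 18 libraries (d, day; r, replicate). Lower panel, summed CPM of the 6 MMP and the 3 TIMP genes. Timp1 takes 33.6 to 66.8% on day 7 and 1.74 to 3.56% on day 0.

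Summed over the 6 enzymes, the mean levels of days 0, 7, 14, 21 and 28 were 299 ± 154, 787 ± 201, 1129 ± 226, 1104 ± 312 and 366 ± 39.3 CPM (SD). The 3 inhibitors summed to 2008 ± 313, 2612 ± 1119, 2640 ± 323, 2253 ± 422 and 1526 ± 309 CPM. The ratio of inhibitor to enzyme transcripts, in the same order, was 7.85 ± 3.17, 3.38 ± 1.49, 2.37 ± 0.27, 2.17 ± 0.70 and 4.18 ± 0.76. Day 0 replicate 1, with 530.0 CPM of enzymes, had a ratio of 3.36, inside the range of day 7. These ratios concern transcripts and not active enzyme, and no test was made on them. They also depend on which enzymes are counted. The 17 other MMP genes, left out of them, summed to 502 ± 79.0 CPM (SD) on day 0, more than the 6 enzymes. Their sums on days 7, 14, 21 and 28 were 296 ± 103, 460 ± 62.9, 458 ± 99.1 and 380 ± 41.6 CPM. Of these genes, Mmp23 had a day 0 mean of 299.6 CPM, above the 168 CPM of Mmp2. The fall from day 0 to day 7 therefore holds for the 6 enzymes chosen.

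Comparisons between the post-injury days asked how long each member stayed raised. No member was called between days 14 and 7 by edgeR (1.66% of all genes were). There, 4 had an unadjusted p under 0.05 (Mmp2, Timp1, Timp2 and Timp3), and DESeq2 called 2 (Mmp2 and Timp3). Between days 21 and 7, 3 members were called, against 7.26% of all genes: Mmp2 (1.00 ± 0.27, adjusted p = 0.0228) and Timp3 (1.40 ± 0.30, adjusted p = 0.00432) were higher on day 21 and Timp1 was lower. The Mmp2 call was lost in 5 of 18 fits that left out 1 library (day 7 replicate 1 or 3, or day 21 replicate 1, 2 or 3). Between days 21 and 14 neither tool called a member, 2 (Mmp12 and Timp1) had an unadjusted p under 0.05, and 0% of all genes were called by edgeR.

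By day 28, 4 members were lower than on day 7 (Mmp9, Mmp12, Mmp14 and Timp1), against 14.4% of all genes called (8.05% lower, 6.4% higher). Timp1 had fallen by 3.88 ± 0.51 on the log2 scale (adjusted p = 2.58e-05) and Mmp14 by 1.79 ± 0.41 (adjusted p = 0.00456). Mmp12, with 3 counts on day 28 and 98 on day 7, had a ratio of 0.0356 (95% counting interval 0.00721 to 0.107, adjusted p = 0.018), and its call was lost without day 28 replicate 2 or 3. Mmp2 and Timp1 were lower on day 28 than on day 14 (-1.81 ± 0.32 and -2.82 ± 0.50, adjusted p = 0.00592 for both), where 0.698% of all genes were called (0.659% lower). Mmp2 was also lower than on day 21 (-1.74 ± 0.31, adjusted p = 0.00691), against 0.679% of all genes called (0.572% lower). Both Mmp2 calls were lost without day 28 replicate 2 or 3 (adjusted p up to 0.0616), and the Timp1 call without day 14 replicate 2 or day 28 replicate 2. Timp3 was 0.93 ± 0.32 higher on day 28 than on day 7 on the log2 scale, just outside the threshold (adjusted p = 0.051), and was called in 13 of 26 alternatives. Day 28 comparisons shared the same 3 libraries.

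The rest of the extracellular proteolysis system was followed in 67 genes of 6 lists, of which 42 were tested and 20 were called against day 0 on at least 1 day, as were 22.7% of all tested genes. The counts by list below stand beside the shares of all genes called higher (11.3%, 4.8% and 5.92% on days 7, 14 and 21) and lower (8.53% on day 7). The 12 genes with the smallest p are named with their lists in the plot of other proteolysis genes. Of 17 other MMP genes, 6 (Mmp1a, Mmp1b, Mmp7, Mmp10, Mmp20 and Mmp21) had no count in any library and 5 were tested. Of these 5 the only one called against day 0 was Mmp17, a membrane-anchored enzyme, which was lower on day 7 (155 to 32.8 CPM in mean, log2 fold change -2.20 ± 0.48, adjusted p = 0.00148). The neutrophil collagenase Mmp8 was too sparse to test, at 14 counts in 6 libraries.

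Other inhibitors and clearance genes numbered 8, with 5 tested. Among those tested was Timp4, the TIMP gene outside the members, which was not called in any comparison. Its means were 24.5, 8.28, 14.0, 30.3 and 17.7 CPM on days 0, 7, 14, 21 and 28. Reck, a membrane-anchored inhibitor of several MMPs, fell on day 7 from 45.5 to 3.63 CPM in mean (-3.60 ± 0.68, adjusted p = 0.000375) and was not called on later days. Thrombospondins Thbs1 and Thbs2, matricellular proteins that help clear Mmp2 through the receptor Lrp1, were higher on days 7, 14 and 21. Thbs1 rose from 90.5 to 554, 695 and 566 CPM, and Thbs2 from 54.6 to 148, 253 and 257 CPM. A pair of genes of the list, A2m and Pzp, had no count. The day 7 falls in Reck and Timp3 stood beside a rise in Timp1 (all against the same day 0 libraries).

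The plasminogen list (11 genes, 8 tested) had 3 higher and 1 lower on day 7, and 1 higher on each of days 14 and 21. Plau, the urokinase that makes plasmin, rose from 3.43 CPM to 86.7 CPM on day 7 (4.50 ± 0.83, adjusted p = 0.000309), 30.2 CPM on day 14 and 24.6 CPM on day 21. Anxa2, a cell surface docking protein for plasminogen, rose by 0.96 ± 0.21 on day 7 (adjusted p = 0.0016). The other 2 called on day 7 were S100a10 (higher) and the protease inhibitor Serpine2 (lower).

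Of 8 ADAM proteases, all tested, 4 were higher (Adam8, Adam10, Adam12 and Adam17) and 1 lower (Adam33) on day 7, and 3 (Adam8, Adam12 and Adam17) were higher on days 14 and 21. Adam8, a protease of leukocytes, went from 1 count over the day 0 libraries (0.373 CPM) to 162 CPM on day 7. Adam12 had no count on days 0 and 28. Its day 7 level stood 59.1-fold above the day 0 floor of 3 counts (adjusted p = 3.8e-05), or 42.3-fold without day 0 replicate 2. The bound for day 14 was 21.5-fold (adjusted p = 0.00176). Adam17, the sheddase inhibited by Timp3, rose from 20.3 to 86.5 CPM on day 7 (2.06 ± 0.44, adjusted p = 0.00123). Among 14 ADAMTS proteases with 9 tested, 1 was higher and 2 lower on day 7, 1 was higher on day 14 (Adamts2) and 2 on day 21 (Adamts2 and Adamts12). The single higher ADAMTS gene of day 7 is a share near that of all genes (11.3%).

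The 9 inducers and activators (7 tested) had 2 higher genes on day 7. Cd44, a hyaluronan receptor that holds Mmp9 and Mmp14 at the cell surface, rose from 34.2 to 233 CPM. Lcn2, which forms a complex with Mmp9, held 623, 173, 0 and 50.05 CPM in the 4 day 7 libraries, against a day 0 mean of 1.57 CPM with 2 libraries at no count, so that the groups overlapped. Its log2 fold change was 6.82 ± 1.37 (adjusted p = 0.000891), and 5.29 without day 7 replicate 1 (adjusted p = 0.0173), where the day 7 mean fell from 211 to 74.2 CPM. It had no count on day 28. Pcsk5, a proprotein convertase, had a late course: it was at 41.0 CPM on day 0 and 21.2 CPM on day 7, and was higher on day 21 (114 CPM, 1.48 ± 0.34, adjusted p = 0.00694) and day 28 (151 CPM, 1.88 ± 0.36, adjusted p = 0.00789), when no member was called.

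**Figure D4:**
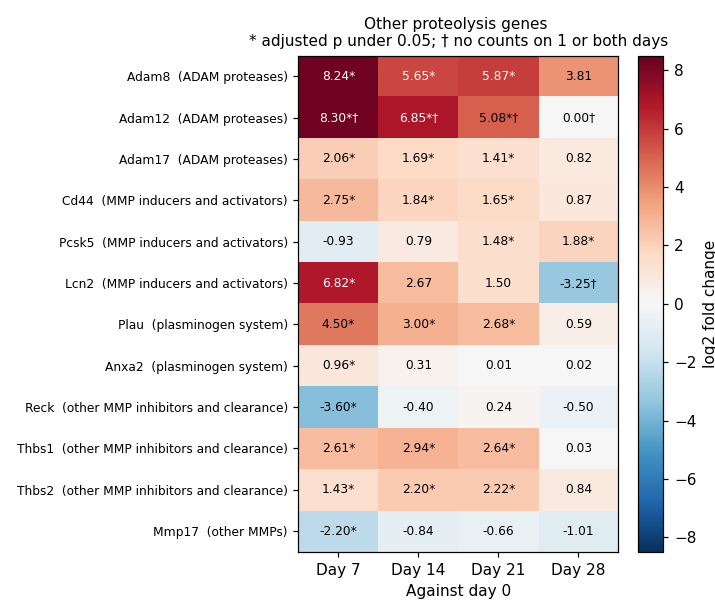
Log2 fold change from day 0 (colour and number) of the 12 named genes on days 7, 14, 21 and 28, with the list of each in brackets. An asterisk marks an adjusted p under 0.05 and a dagger a comparison with no count on 1 or both days. Reck and Mmp17 are the genes lower on day 7 with an asterisk.

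Some of these calls rested on single libraries. Without day 14 replicate 2, the day 14 calls of Adam8, Cd44, Thbs2, Plau and Adam17 were lost (adjusted p of 0.1, 0.139, 0.0719, 0.121 and 0.0632), and the day 14 bound of Adam12 was 12.7-fold, in place of 21.5-fold. That of Plau was also lost without day 0 replicate 1 or 3 or day 14 replicate 3, and that of Adam17 without day 0 replicate 1, 3 or 4 or day 14 replicate 3. Thbs1 on day 14 remained called, with a log2 fold change of 2.20 in place of 2.94. The day 7 call of Thbs2 was lost in 5 of 18 fits without 1 library (day 0 replicate 1, 3 or 4, or day 7 replicate 2 or 3). The day 21 calls of Plau and Adam17, close to the threshold (adjusted p = 0.0449 and 0.0441), were lost in 10 and 12 of those fits, among them, for both, day 0 replicates 1, 3 and 4 and day 21 replicates 2, 3 and 4. Without day 0 replicate 3, which held the only Adam8 count of its day, the Adam8 calls of days 7, 14 and 21 held. Mmp17 on day 7 was -3.37 without replicate 4, Reck -4.19 without replicate 1 and Plau 3.87 without replicate 3, each still called.

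The marker sums that moved beside these values are shown by library. Macrophage markers were highest on day 7, as were Timp1 and Mmp14 by mean, while contractile markers were lowest, as was Timp3. Fibroblast markers (9 genes) summed to 3538 to 5146 CPM on day 14 and 3715 to 5886 CPM on day 21, against 2632 to 3743 CPM on day 0 and 1403 to 2635 CPM on day 7. Day 14 had 2 of them higher than day 0 (Lum and Ly6a) and 1 lower (Gsn), and day 21 had 3 higher (Cd34, Lum and Ly6a) and 1 lower (Gsn). Without Lum, whose mean went from 119 CPM on day 0 to 1566 and 1837 CPM, the other 8 summed to 2576 to 3561 CPM on day 0, 2635 to 3070 CPM on day 14 and 2013 to 3564 CPM on day 21. Red blood cell genes summed to 164 to 2347 CPM on day 7 and 40.2 to 369 CPM on day 0. The 8 T and B cell markers were too sparse to test (1.31 to 42.4 CPM in sum over all libraries).

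**Figure D5:**
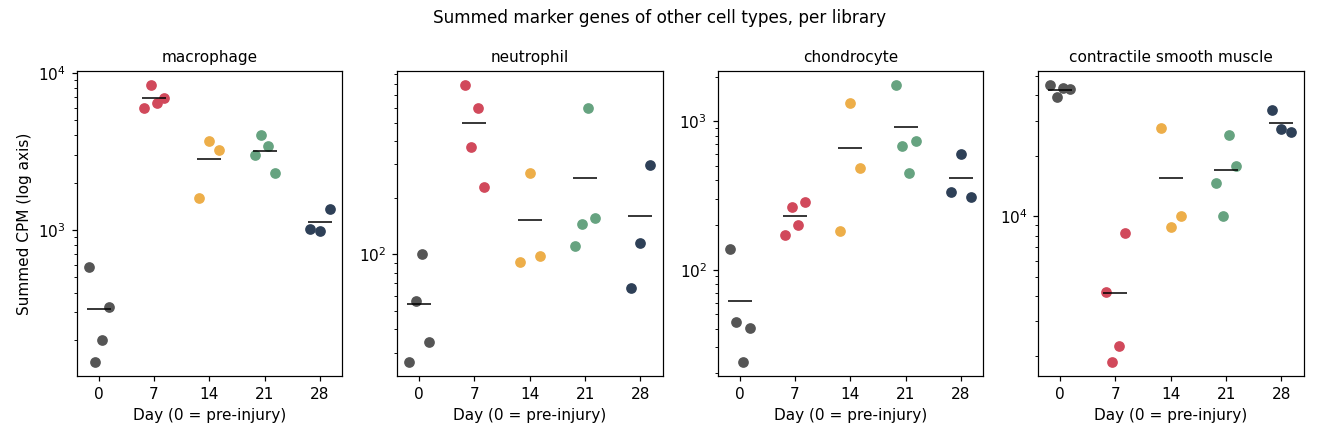
Summed CPM (log axes) of macrophage, neutrophil, chondrocyte and contractile smooth muscle marker genes by day, 1 point per library with the mean as a tick. Macrophage sums peak on day 7 (5930 to 8395 CPM), where contractile smooth muscle sums are lowest (1874 to 8238 CPM).

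The genes most like each member were taken by Pearson's r of log2 CPM over the 18 libraries, as a description, since libraries of 1 day share their injury stage. Mmp2 was most like the collagens and fibrillin of the matrix, Col3a1 (r = 0.95), Fbn1 (0.91) and Col1a1 (0.91). Timp1 was most like Ms4a6d (0.97), Napsa (0.96) and Fcgr1 (0.96), of which the last is a macrophage Fc receptor and among the markers above. Timp3 was most like Igfbp7 (0.95), Prelp (0.94) and Rarres2 (0.92), which had mean levels of 4560, 732 and 413 CPM on day 0 and 1575, 202 and 56.8 CPM on day 7.

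Mmp14 was most like Tifab (0.91), Fscn1 (0.91) and Marcks (0.91), and Timp2 like Mfap2 (0.88), Nrbf2 (0.83) and Fstl1 (0.83). Mmp9 was most like Cenpf (0.86), Arg1 (0.86) and Tgfbi (0.86). For Mmp12 they were Ugt1a7c (0.85), Itgam (0.85) and Pthlh (0.84), for Mmp13 Ddah1 (0.85), Oas1a (0.83) and Rgs16 (0.82), and for Mmp3 C3 (0.79), Pros1 (0.77) and Serping1 (0.75). Mmp9, Mmp12 and Mmp13 had no count in 9, 5 and 10 of the 18 libraries, so their r values rest in part on shared absence.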

How the data were processed

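MACE libraries of 18 carotid samples were used. The authors removed adapters and PCR duplicates, quantified reads with Salmon 1.9.0 on mm39 and deposited estimated counts as whole numbers, beside a normalised signal table that the authors made with DESeq2 1.36.0 and that serves here as an alternative. The annotation release and strand setting are not given in the sources used here. Genes were filtered with filterByExpr (minimum count 10, grouped by day), TMM-normalised and fitted by day over 18 libraries with edgeR 4.0.16 (R 4.3.3), and 10 pairs of days were compared. CPM used TMM effective library sizes. An SE is the log2 fold change divided by the square root of F. Totals of 440675 to 878310 counts limit precision for genes under about 10 counts. Settings tried instead were DESeq2 1.42.0, limma 3.58.1 on log2(signal + 1), other scalings and filters, blocks, and leaving out each library. Scripts were tested on simulated data, where 68% of planted 4-fold and 19% of planted 2-fold changes between days 7 and 0 were recovered. Changes of these sizes can therefore go uncalled.

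The members and lists were chosen with earlier results of these data known. Named genes are the 9 members, the 12 other proteolysis genes called against day 0 with the smallest p, and the 3 genes most like each member (log2 CPM, prior count 2). Genes named outside this rule (neighbouring or overlapping genes, marker genes and other list genes) were chosen after their values were seen. Replicate numbers did not pair the libraries, and no library was a duplicate of another (chi-square per degree of freedom of 3.64 or more within a day).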

Additional observations from a re-analysis of the deposited data

Results flagged for a closer look

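Of 42 groups of 4 libraries, 6 had a library set apart from the other 3 by Dixon's criterion. Chance does this in about 1 in 20 groups of normally spread values, a rate that does not apply to Mmp12 on day 0 and Mmp9 on day 21, where 3 libraries had no count and any count in the fourth meets the criterion. On day 0, replicate 1 held 5.96 CPM of Mmp12 against no count in the others, and 530.0 CPM over the 6 enzymes against 215 to 229.7 CPM. On day 7, replicate 2 held 334 CPM of Mmp14 against 157 to 166 CPM, and replicate 3 held 516 CPM of Timp2 against 949 to 1014 CPM. On day 21, replicate 3 held 6.58 CPM of Mmp9 against no count, and 230.2 CPM of Mmp12 against 3.55 to 18.6 CPM. Groups of 3 (days 14 and 28) could not be examined in this way. The cause of these values was not tested.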

How the results depend on the processing

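Of 2338 values of a member under an alternative setting, 2246 kept their direction where called and their side of the threshold, 30 lost a call, 62 gained one and 0 reversed a call. The 45 day means moved by less than 1 SD when scaled by total counts. Between days 14 and 7 (0 members called) the count was 2 with DESeq2, 1 by total counts, 3 with no filter, 1 with the stricter filter and 2 with limma. Between days 21 and 14 (0) it was 1 with no filter. Between days 28 and 14 (2) it was 5 with no filter and 1 when only those days were fitted, and between days 28 and 21 (1) it was 4 with DESeq2, 4 with no filter and 2 when only those days were fitted. The cause was not tested. Leaving out 1 library gave counts of 5 to 7 for day 7 against day 0 (5 without day 0 replicate 2 or 4 or day 7 replicate 3), 2 to 4 for day 14 (2 without day 14 replicate 2), 3 to 4 for day 21 and 0 to 0 for day 28. It gave 0 to 2 for days 14 and 7 (2 without day 7 replicate 4, 1 without day 0 replicate 1 or 3, day 14 replicate 2 or day 21 replicate 4), 2 to 3 for days 21 and 7, 2 to 6 for days 28 and 7 (2 without day 28 replicate 2 or 3), 0 to 0 for days 21 and 14, 0 to 2 for days 28 and 14 (0 without day 28 replicate 2) and 0 to 2 for days 28 and 21 (0 without day 28 replicate 2 or 3, 2 without day 0 replicate 1, day 21 replicate 1 or day 28 replicate 1).

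With the replicate block the count between days 14 and 7 was 1 (Timp3). The block also called Mmp9 (days 7 and 0, days 21 and 7) and Timp3 (days 28 and 7), and lost Mmp13 (days 14 and 0). Libraries that share a replicate number had a median residual correlation of -0.01 (33 pairs, -0.13 to 0.20), and 2 of 18 correlated best with their own number, so the number is not a pairing. Label numbers shared by 3 day 0 and day 21 libraries gave -0.01 to 0.06, and blocking on them left 4 members called on day 21.

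Leaving out each library for the 12 other named proteolysis genes, the bounds without 1 library and the fibroblast sum without Lum were added after seeing the data. Of 486 such fits of a gene called against day 0, 39 lost the call.

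Depth limits Mmp9, Mmp12 and Mmp13 most, with 110, 289 and 95 counts over the 18 libraries.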
